A study of Mus musculus with 5 samples.

Results

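The mitochondrial genome of the mouse was represented by 37 of the 37982 gene rows in each expression table, and all 37 were taken by their place on the mitochondrial chromosome, without regard to their values. They were 13 protein genes, 2 rRNA genes and 22 tRNA genes. RNA was sequenced from brain microvascular fragments of 5 male C57BL6 mice between 26 and 38 weeks of age, 1 library per mouse. The 3 WT mice were littermate controls of 2 mice (below also called mutants) heterozygous for Ins2-AKITA, a missense mutation in 1 copy of the insulin gene Ins2 that causes chronic hyperglycemia. Fragments were pulled from digested brain with beads against PECAM1, an endothelial surface protein, so that pericytes, other mural cells and astrocyte end-feet come along with the endothelium. The comparison asked whether mitochondrial transcripts of these fragments differed between hyperglycemic and WT mice.

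Mitochondria carry their own small circular genome. Both of its strands are transcribed into long precursors, and the tRNAs that lie between the other genes mark the places where the precursors are cut into single RNAs. The proteins it encodes are core subunits of complexes I, III, IV and V of oxidative phosphorylation, while all other subunits, and the whole machinery that copies and transcribes this genome, come from nuclear genes. The rRNAs and tRNAs serve the mitochondrial ribosome. Endothelium of the blood-brain barrier has been described as rich in mitochondria.

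A few stretches of this genome are needed to read the values below, all on the plus strand of chromosome M in build NCBIM37, which is 16299 nt long. The mt-Nd4l gene (chrM:9877-10173) encodes a small complex I subunit and is shown whole because a nuclear gene holds the identical sequence. Its last 7 bases, in capitals, also begin mt-Nd4.
mt-Nd4l: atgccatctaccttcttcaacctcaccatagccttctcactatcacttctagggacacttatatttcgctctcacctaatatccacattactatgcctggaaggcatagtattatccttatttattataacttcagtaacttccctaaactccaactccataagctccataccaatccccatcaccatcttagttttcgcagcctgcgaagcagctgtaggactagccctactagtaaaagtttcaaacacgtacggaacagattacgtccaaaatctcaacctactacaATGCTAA
The junction of mt-Atp8 and mt-Atp6 (chrM:7907-7989), which encode subunits of complex V, is shown because 43 bases, in capitals, belong to both genes.
mt-Atp8/mt-Atp6 junction: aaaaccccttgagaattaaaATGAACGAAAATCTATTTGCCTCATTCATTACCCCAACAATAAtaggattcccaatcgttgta
The shortest tRNA gene, mt-Ts2 (chrM:11613-11671, 59 nt), and the longest, mt-Tl1 (chrM:2676-2750, 75 nt), are shown to give the size of the tRNA class, with no base in capitals.
mt-Ts2: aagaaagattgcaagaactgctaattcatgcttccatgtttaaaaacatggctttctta
mt-Tl1: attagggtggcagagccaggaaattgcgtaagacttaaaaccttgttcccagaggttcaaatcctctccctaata

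Expression was given as FPKM, fragments scaled by transcript length and by library size, so levels of different genes below are on a scale per length. Values of low genes fell on whole-fragment steps, which put the libraries at about 1140000, 1295000 and 2795000 assigned fragments in WT replicates 1, 2 and 3 and about 1105000 and 1260000 in Ins2-AKITA replicates 1 and 2. WT replicate 3 was thus the deepest library. Markers of endothelium, pericytes, smooth muscle, astrocytes, neurons, oligodendrocytes and microglia were above 0 in every mouse, so the fragments held RNA of several cell types. In such a mixture fewer cells of a type and less RNA per cell cannot be told apart. The Ins2 row was at 0 FPKM in 4 mice and at 1.51 in WT replicate 3, and a missense change would not be visible in it, so it does not check the genotype labels.

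The mitochondrial genes were among the most abundant in the table. The 13 protein genes together made 6.59%, 7.03% and 6.59% of protein-coding FPKM in WT replicates 1, 2 and 3, against 6.90% and 7.21% in the mutants. The Ins2-AKITA mean was 0.32 percentage points higher, and the groups overlapped. Among the 10 highest protein-coding genes of each mouse, 9 were mitochondrial in every WT mouse and 7 in both Ins2-AKITA mice. This count depended on the cut. The protein-coding genes that reached the lowest of the 10 leading mitochondrial ones numbered 14, 12 and 14 in WT, against 14 and 13 in the mutants. Summed FPKM of the protein genes was 26477, 27475 and 25579 in WT, against 27084 and 30367 in the mutants, with means of 26510 ± 949 (SD, n = 3) and 28726 ± 2321 (SD, n = 2). Thus the Ins2-AKITA mean stood at 1.08 times the WT mean, with Ins2-AKITA replicate 1 inside the WT range.

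The rRNAs exceeded every protein gene, although rRNA had been depleted before library construction, so their levels are what remained after that step. The larger rRNA, mt-Rnr2 (chrM:1094-2675), was at 28400, 27033 and 18956 FPKM in WT, against 29568 and 31358 in the mutants. Both Ins2-AKITA values lay above the WT range, by little over WT replicate 1. For mt-Rnr2 the limma log2 fold change of Ins2-AKITA over WT was 0.32 (95% interval -1.17 to 1.81, Benjamini-Hochberg adjusted p = 0.949). The smaller rRNA, mt-Rnr1 (chrM:70-1024), was at 13269, 13115 and 6327 FPKM in WT, against 10380 and 13519 in the mutants. These groups overlapped, and the log2 fold change of mt-Rnr1 was 0.20 (95% interval -1.12 to 1.51, limma adjusted p = 0.963). WT replicate 3 was the lowest of the 5 mice for both rRNAs. Without it the log2 fold change of mt-Rnr1 was -0.16 and that of mt-Rnr2 0.14.

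The sum of both rRNAs was 1.57 and 1.46 times the protein gene sum in WT replicates 1 and 2, 0.988 times in WT replicate 3, and 1.47 and 1.48 times in the mutants. Likewise mt-Rnr2 over mt-Rnr1 was 2.14, 2.06 and 3.00 in WT, against 2.85 and 2.32 in the mutants. The ratio between the rRNAs therefore varied within both groups by more than between them. In estimated fragments, the rRNAs took 4.87%, 4.67% and 3.05% of the WT libraries and 4.81% and 5.28% of the Ins2-AKITA libraries. Of these, mt-Rnr2 carried 28.0 to 45.7 fragments per nt. Reads marked as duplicates had been removed before counting, and whether that lowered genes covered this densely was not tested.

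**Figure D1:**
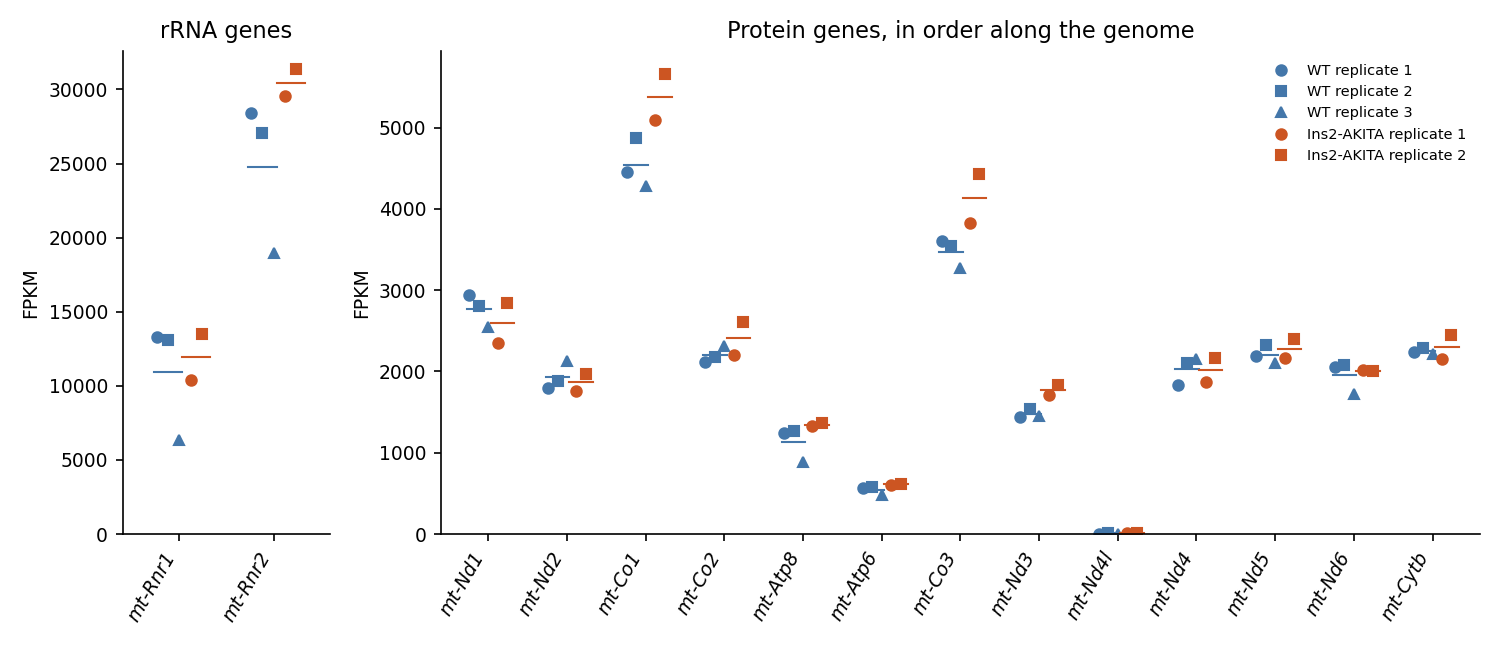
FPKM (linear axes from 0) of the 2 rRNA genes and the 13 protein genes in each mouse, with a horizontal line at the group mean. WT replicate 3 (triangle) is lowest for both rRNAs, mt-Co1 and mt-Co3 lead the protein genes, and mt-Nd4l lies near 0.

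The complex IV genes encode the catalytic core of cytochrome c oxidase, and mt-Co1 and mt-Co3 had the highest levels of the protein genes. mt-Co1 (chrM:5328-6872) was at 4453, 4877 and 4282 FPKM in WT, against 5090 and 5664 in the mutants. mt-Co3 was at 3602, 3539 and 3275 FPKM in WT, against 3833 and 4434 in the mutants. For both genes the Ins2-AKITA values lay above all WT values, with limma log2 fold changes of 0.24 (95% interval -0.57 to 1.06) for mt-Co1 and 0.25 (95% interval -0.50 to 1.00) for mt-Co3. mt-Co2 was at 2119, 2176 and 2315 FPKM in WT, against 2202 and 2612 in the mutants. Here Ins2-AKITA replicate 1 lay inside the WT range, and the log2 fold change of mt-Co2 was 0.12, which became 0.00043 without Ins2-AKITA replicate 2 and 0.25 without Ins2-AKITA replicate 1. The adjusted p-values from limma were 0.922 for mt-Co1, 0.916 for mt-Co3 and 0.956 for mt-Co2.

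Complex V, the ATP synthase, takes mt-Atp8 and mt-Atp6 from this genome. mt-Atp8 was at 1248, 1262 and 889 FPKM in WT, against 1324 and 1368 in the mutants. mt-Atp6 was at 561, 580 and 483 FPKM in WT, against 601 and 619 in the mutants. Both genes were above the WT range in both Ins2-AKITA mice and lowest in WT replicate 3, with log2 fold changes of 0.27 (95% interval -0.38 to 0.91) for mt-Atp8 and 0.18 (95% interval -0.32 to 0.67) for mt-Atp6. Without WT replicate 3 these were 0.10 for mt-Atp8 and 0.096 for mt-Atp6. The limma adjusted p-values were 0.902 for mt-Atp8 and 0.906 for mt-Atp6. Although these genes share the capital bases printed above and one transcript, mt-Atp8 was listed at 1.84 to 2.22 times the FPKM of mt-Atp6. With 204 nt, mt-Atp8 is shorter than the 215 to 218 nt by which gene lengths were reduced to fit the FPKM steps. Its FPKM may therefore not be on the scale of longer genes. It stood at 14.8 to 47.3 times the lowest value above 0 among genes within 2 nt of its length.

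Complex I, the NADH dehydrogenase, takes 7 subunits from this genome. mt-Nd3 was at 1434, 1541 and 1456 FPKM in WT, against 1706 and 1829 in the mutants. Its groups did not overlap, and the log2 fold change of mt-Nd3 was 0.26 (95% interval -0.33 to 0.84, limma adjusted p = 0.902). mt-Nd1 was at 2946, 2801 and 2546 FPKM in WT, against 2351 and 2847 in the mutants. mt-Nd2 was at 1801, 1878 and 2129 FPKM in WT, against 1765 and 1967 in the mutants. mt-Nd1 and mt-Nd2 had the lowest log2 fold changes of the members, -0.09 and -0.05, and in both the mutant mice spread across WT values. mt-Nd4 was at 1838, 2104 and 2159 FPKM in WT, against 1868 and 2168 in the mutants, with a log2 fold change of -0.01. mt-Nd5 was at 2189, 2328 and 2103 FPKM in WT, against 2160 and 2401 in the mutants, with a log2 fold change of 0.05. Overlap was thus seen for every complex I gene but mt-Nd3, including mt-Nd4l and mt-Nd6 below.

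mt-Cytb, the sole subunit of complex III encoded here, was at 2235, 2295 and 2213 FPKM in WT, against 2157 and 2446 in the mutants. Its Ins2-AKITA values fell on either side of a narrow WT range, and the log2 fold change of mt-Cytb was 0.03 (95% interval -0.62 to 0.68, limma adjusted p = 0.990).

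mt-Nd6 (chrM:13552-14070) is the single protein gene on the minus strand and encodes a complex I subunit. It was at 2052, 2078 and 1725 FPKM in WT, against 2016 and 2003 in the mutants, a log2 fold change of 0.05 (95% interval -0.59 to 0.69, limma adjusted p = 0.981). Its Ins2-AKITA values lay inside the WT range. Against mt-Nd5, its neighbor on the other strand, it stood at 0.938, 0.892 and 0.820 in WT, against 0.933 and 0.834 in the mutants. The library kit keeps strand, but whether counting used it is not given in the sources used here, so mt-Nd6 and reads from the opposite strand at this place cannot be told apart.

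No mitochondrial gene passed the genotype test. Of the 15 members with a mean of at least 1 FPKM, 0 had a limma adjusted p under 0.05 and 0 an unadjusted p under 0.05, the lowest unadjusted p being 0.315. Over the whole table the same test called 0% of 16286 genes higher and 0.0246% lower in Ins2-AKITA mice after adjustment, and 4.46% at an unadjusted p under 0.05. The 95% interval of every tested member included 0. Outside mt-Nd4l the widest was that of mt-Rnr2, -1.17 to 1.81 on the log2 scale, from 0.444-fold to 3.50-fold. The narrowest was that of mt-Atp6, -0.32 to 0.67. For each gene, changes within its own interval cannot be told from none with 3 and 2 mice. The limma standard error of mt-Rnr2 was 0.616, against 0.276 with a constant prior variance and 448 without the FPKM filter. Both Ins2-AKITA values lay above all WT values in 6 of 15 members (40%), against a background of 9.24% of all tested genes, and below all WT values in 0 of 15, against 10.3%. These 6 were mt-Rnr2, mt-Co1, mt-Atp8, mt-Atp6, mt-Co3 and mt-Nd3. Without WT replicate 3, a count added after seeing the data, 7 of 15 lay above both remaining WT mice (18% of all tested genes) and 1, mt-Nd6, below them (23.5%). The log2 fold change was positive for 12 of 15 members (80%) and for 46.5% of all tested genes. Scaling each library to nuclear protein-coding FPKM turned mt-Cytb negative, and scaling to the sum of all rows turned mt-Nd1, mt-Nd2 and mt-Nd4 positive. The median was 0.18 over the tested members and -0.03 over all tested genes. Members are cut from shared precursors and come from the same 5 libraries, so these counts do not hold 15 separate observations.

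**Figure D2:**
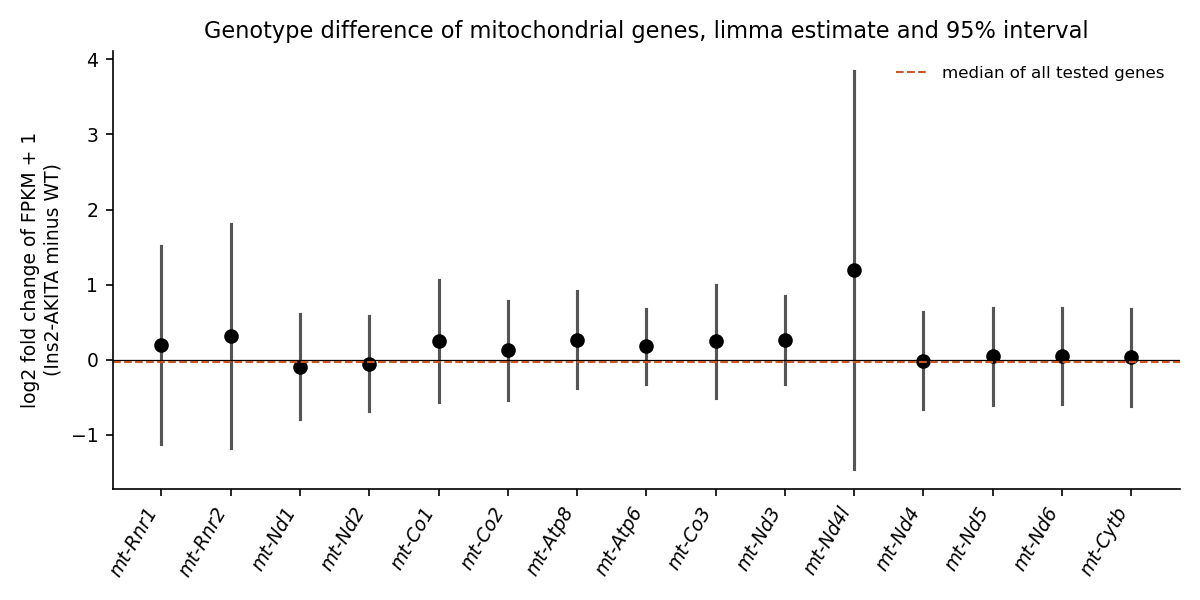
Limma log2 fold change of FPKM + 1 (Ins2-AKITA minus WT, points) with its 95% interval (bars) for the 15 tested mitochondrial genes, and the median of all tested genes (dashed line, -0.03). Every interval spans 0, and the widest, -1.46 to 3.85, is that of mt-Nd4l.

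Variation among the WT mice was set beside that of abundant nuclear genes. In WT mice the coefficient of variation of the 12 protein genes other than mt-Nd4l was 1.88% to 18.7% with a median of 7.04%. Nuclear protein-coding genes with at least 100 FPKM had a median of 13.7% (606 genes, quartiles 8.84% and 21.1%). The lowest mean of the 12 mitochondrial genes was 569 FPKM (mt-Atp6), so the 12 were not matched in level to the nuclear genes. The rRNAs, with 36.4% and 20.6%, lay near or above the upper quartile of those nuclear genes. By mean FPKM over all mice, the order of the protein genes was mt-Co1, mt-Co3, mt-Nd1, mt-Co2, mt-Cytb, mt-Nd5, mt-Nd4, mt-Nd6, mt-Nd2, mt-Nd3, mt-Atp8, mt-Atp6 and mt-Nd4l. From mt-Co2 to mt-Nd2 the values of neighboring genes in this order overlapped over the 5 mice. In contrast, mt-Co1 was above mt-Co3, and mt-Co3 above mt-Nd1, in every mouse. The place of mt-Atp8 in this order is subject to the limit of its length given above.

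Sums over the subunits of each complex were compared between genotypes as descriptions. Complex I genes summed to 12260, 12745 and 12121 FPKM in WT, against 11876 and 13225 in the mutants, a mean log2 ratio of 0.02. Complex IV genes summed to 10173, 10592 and 9872 FPKM in WT, against 11126 and 12709 in the mutants, a mean log2 ratio of 0.22. Complex V genes summed to 1809, 1843 and 1372 FPKM in WT, against 1925 and 1986 in the mutants, a mean log2 ratio of 0.24, with WT replicate 3 well below the other mice. The sums for complexes IV and V did not overlap between genotypes, while those for complex I did. Most of the complex V sum came from mt-Atp8, so this sum is subject to the limit of the length of mt-Atp8 given above.

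Complex IV over complex I was 0.830, 0.831 and 0.815 in WT, against 0.937 and 0.961 in the mutants, so the closest mice of opposite genotype were farther apart than any mice of the same genotype. The difference of means was 0.12 and lay between 0.112 and 0.136 when each mouse was left out in turn. Similarly mt-Co3 over mt-Nd1 was 1.22, 1.26 and 1.29 in WT, against 1.63 and 1.56 in the mutants. mt-Co2 and mt-Co3 lie whole, and mt-Co1 in part, inside the nuclear copy on chromosome 1 described below. Of the complex I genes, mt-Nd3 and mt-Nd4l also lie whole, and mt-Nd4 in part, inside that copy. mt-Nd1, mt-Nd2, mt-Nd5 and mt-Nd6 lie outside that copy, and its part in these ratios was not tested. Both ratios were chosen after their values were seen and are descriptions without a test. With 3 and 2 mice an exact permutation test cannot go below p = 0.1.

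As a percentage of the protein gene sum, which removes the scale of each library, 3 of 13 genes were higher in both Ins2-AKITA mice than in all WT mice. mt-Co1 went from a mean of 17.1% in WT to 18.7% in Ins2-AKITA mice, mt-Co3 from 13.1% to 14.4% and mt-Nd3 from 5.57% to 6.16%. Another 4 of 13 were lower: mt-Nd1 with 10.4% and 9.03%, mt-Nd2 with 7.32% and 6.50%, mt-Nd5 with 8.32% and 7.94%, and mt-Cytb with 8.48% and 8.01%. The remaining 6 overlapped. Of the 3 higher genes, mt-Co3 and mt-Nd3 lie whole and mt-Co1 in part inside the nuclear copy on chromosome 1 described below. The 4 lower genes lie outside it, and of the 6 that overlapped only mt-Nd6 does. The part of this copy in the shares was not tested. For nuclear protein-coding genes, as a share of their own sum, both Ins2-AKITA values lay above all WT values in 7.94% of 13978 genes and below them in 12.6%. Shares of 1 sum are tied to each other, so a higher share of some genes makes that of others lower.

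**Figure D3:**
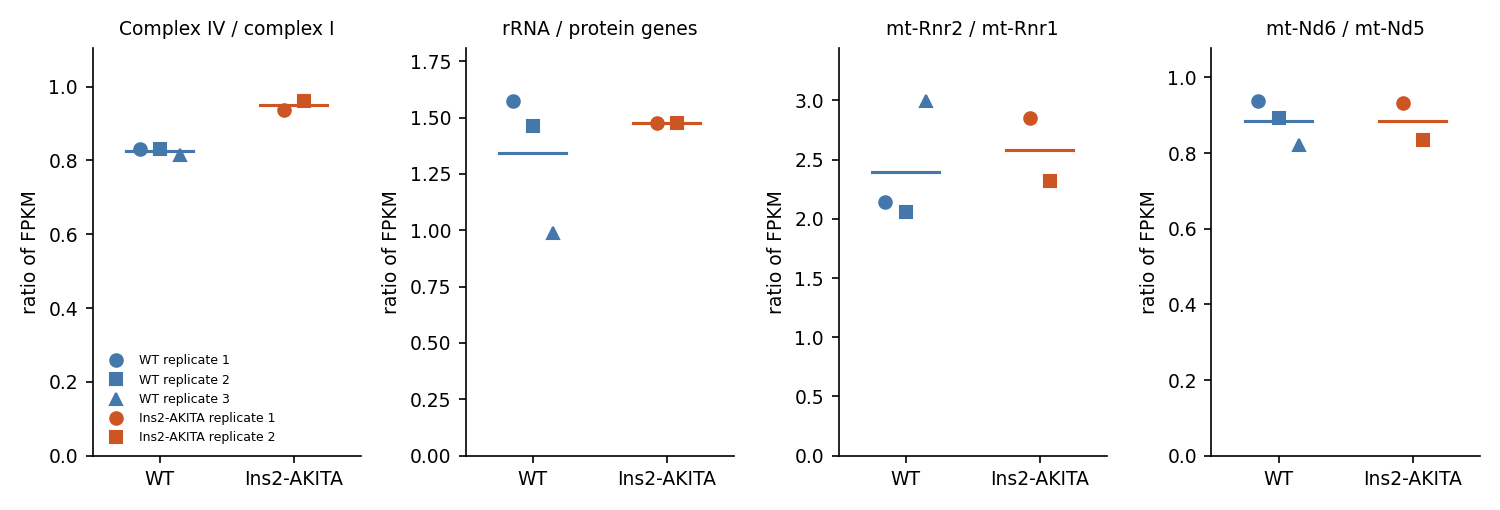
Ratios of FPKM in each mouse (points) with group means (lines), for complex IV over complex I, the rRNA sum over the protein gene sum, mt-Rnr2 over mt-Rnr1 and mt-Nd6 over mt-Nd5, on axes from 0. The complex IV over complex I ratio separates the genotypes (0.815 to 0.831 in WT, 0.937 and 0.961 in Ins2-AKITA), whereas the other 3 ratios overlap. The part of the nuclear copy on chromosome 1 in these ratios was not tested.

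All 22 tRNA genes were listed at 0 FPKM in every mouse. Of these, 14 lay on the plus strand and 8 on the minus strand, with 59 to 75 nt. This zero was shared by every short gene of the table. None of 622 nuclear genes of 59 to 75 nt had a value in any mouse, and none of the 3077 nuclear genes shorter than 109 nt. Of 1923 nuclear genes with 109 to 150 nt, 130 (6.76%) had a value, and of those with 301 to 500 nt 30.5%. The shortest genes with a value in each mouse had 109 to 120 nt. The tRNA zeros therefore say nothing of the tRNA level, and the tRNA class could not be compared between genotypes. In addition, tRNA was depleted before library construction, per the labels.

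**Figure D4:**
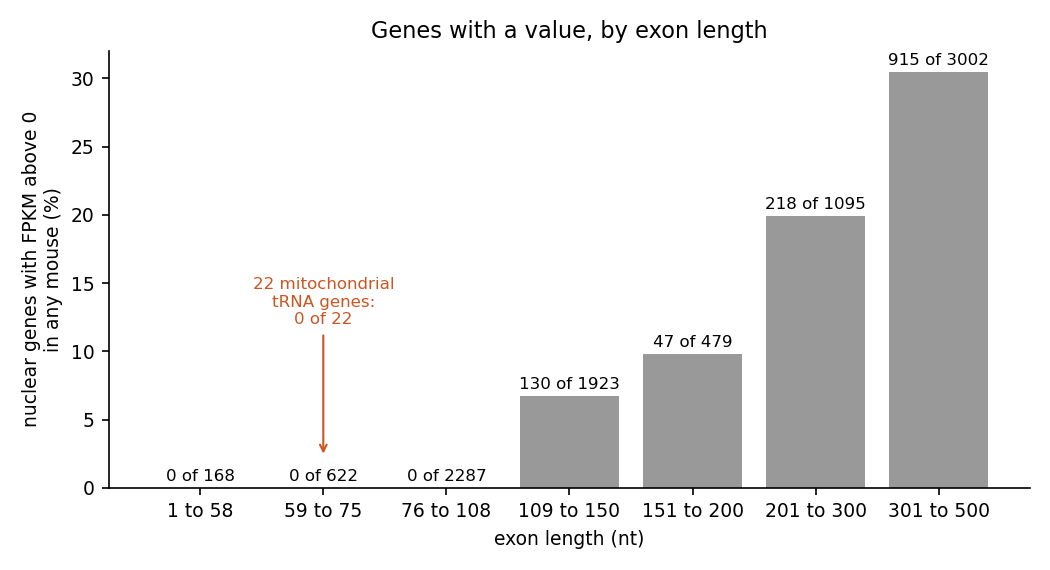
Share of nuclear genes with an FPKM above 0 in any mouse (bars, %), by exon length in nt, with the counts above each bar. No gene of 108 nt or shorter had a value, and the 22 mitochondrial tRNA genes (arrow) fall in the 59 to 75 nt class.

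mt-Nd4l, printed above, stood far below its neighbors. It was at 0, 16.3 and 3.96 FPKM in WT, against 9.65 and 8.61 in the mutants, while mt-Nd3 just before it and mt-Nd4, which overlaps it, were at 1434 FPKM or more in every mouse. In the Ins2-AKITA mice and WT replicate 3 its value equalled the lowest value above 0 among genes within 2 nt of its length, and it was 2.04 times that value in WT replicate 2. These are the values of about 1 or 2 fragments. Its log2 fold change of 1.196 (95% interval -1.46 to 3.85, limma adjusted p = 0.902) rests on those fragments.

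The 297 nt of mt-Nd4l are identical, base for base, to the nuclear gene Gm10222 (chr1:24619243-24619539, minus strand), which was at 65.3, 65.3 and 79.2 FPKM in WT, against 57.9 and 86.1 in the mutants. Reads inside these bases fit both genes equally well. Gm10222 is part of a nuclear copy of mitochondrial DNA at chr1:24618374-24623027 that matches chrM:6390-11042 with 99.9% identity, with 2 mismatches and 1 gap. That copy holds mt-Co2, mt-Atp8, mt-Atp6, mt-Co3, mt-Nd3 and mt-Nd4l whole, 483 of 1545 nt of mt-Co1 and 876 of 1378 nt of mt-Nd4. Therefore genes of this stretch are uncertain as single values, since how reads with several best places were handled is not given in the sources used here. Of the 6 members above the WT range, mt-Atp8, mt-Atp6, mt-Co3 and mt-Nd3 lie whole inside it and mt-Co1 in part. Its part in those differences was not tested.

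A second nuclear gene in this copy, Gm10925, is identical to 635 of 681 nt of mt-Atp6 and 180 of 204 nt of mt-Atp8. It was at 107, 105 and 135 FPKM in WT, against 118 and 137 in the mutants, with a log2 fold change of 0.15 (limma adjusted p = 0.919). mt-Nd4l, mt-Atp6 and mt-Atp8, the 3 lowest mitochondrial protein genes, were those with an annotated nuclear gene identical over most of their length, a relation noticed after the values were seen. With Gm10222 added to it, the log2 fold change of mt-Nd4l was 0.07.

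Annotated copies that had diverged more were below Gm10222 and Gm10925 in every mouse, and some were at 0. On chromosome 2, Gm13340 (97.6% identical to mt-Co1) was at 24.1 to 34.8 FPKM over the 5 mice, Gm13339 (96.7% identical to 510 nt of mt-Nd2) at 21.9 to 38.9 and Gm13341 (95.9% identical to mt-Co2) at 3.84 to 25.4. Gm11407, Gm11408 and Gm11410 on chromosome 4, and Gm11512 on chromosome 11, with 90.7% to 93.6% identity to mt-Nd5, mt-Nd6, mt-Cytb and part of mt-Co1, were at 0 in every mouse.

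**Figure D5:**
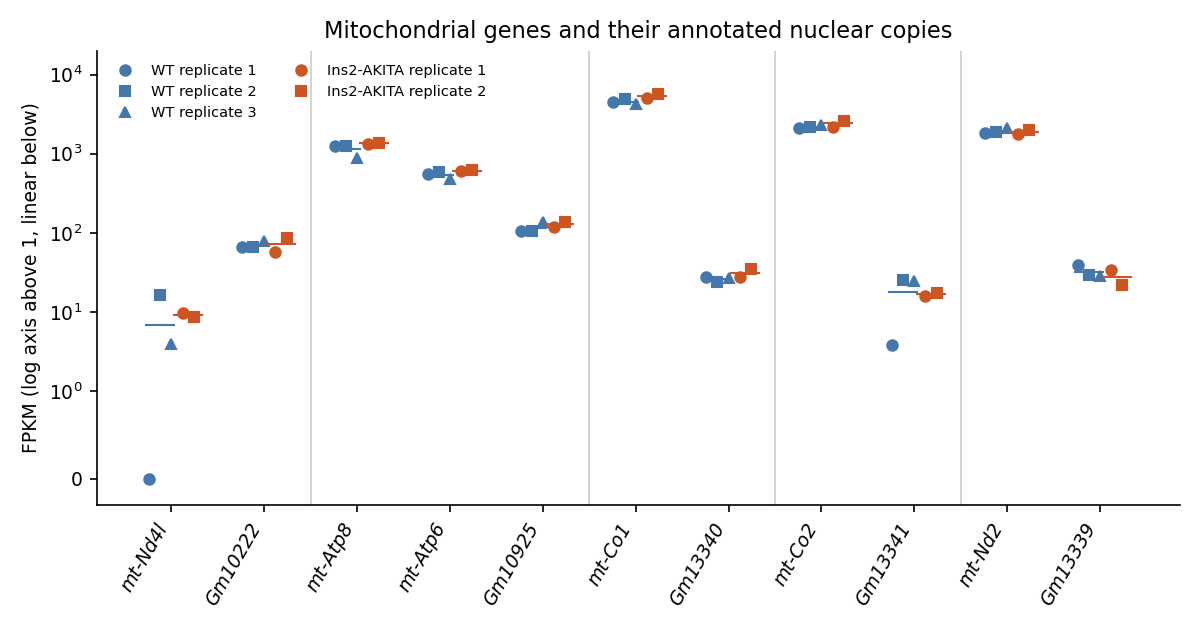
FPKM of mitochondrial genes and of the annotated nuclear genes that copy them (log axis above 1, linear below), in each mouse with group means. Gm10222, identical to mt-Nd4l, lies at 57.9 to 86.1 FPKM where mt-Nd4l lies at 0 to 16.3, whereas the other copies lie below their mitochondrial counterparts.

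Nuclear genes that serve the mitochondrial genome were compared next. The list for its RNA synthesis, processing and decay held 36 tested genes, of which 0 passed the limma adjusted threshold in either direction, with 1 higher and 0 lower at an unadjusted p under 0.05 (background 4.46% in either direction). The list also included genes that copy the mitochondrial DNA, such as Polg2. Its median log2 fold change was -0.03, as over all tested genes, and ran from -0.098 to 0.072 with 1 mouse left out. Polrmt, the mitochondrial RNA polymerase, was at 11.5, 14.4 and 8.0 FPKM in WT, against 11.7 and 7.89 in the mutants, a log2 fold change of -0.18. Tfam, which packages the genome and opens its promoters, was at 14.2, 15.4 and 17 FPKM in WT, against 29.6 and 16.3 in the mutants. Its log2 fold change of 0.48 rested on Ins2-AKITA replicate 1, the other mutant mouse being inside the WT range.

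Lrpprc, which stabilizes mitochondrial mRNAs, was at 12.9, 12.4 and 11.8 FPKM in WT, against 17.5 and 18.0 in the mutants. These groups did not overlap, and the log2 fold change of Lrpprc was 0.49 (95% interval -0.01 to 0.98, limma adjusted p = 0.896). Its partner Slirp, which the annotation names 1810035L17Rik, was at 4.96, 7.16 and 15.6 FPKM in WT, against 14.5 and 12.1 in the mutants, inside the WT range, with a log2 fold change of 0.61. The extremes of the list were Fastkd2, an RNA-binding protein of mitochondrial RNA granules, with a log2 fold change of 1.40, and Polg2, an accessory subunit of the mitochondrial DNA polymerase, with -1.30. Fastkd2 was at 3.68, 1.35 and 4.73 FPKM in WT, against 18.3 and 4.68 in the mutants, so that a single mouse stood apart. Polg2 was near the floor in all mice, at 3.96, 1.77 and 1.22 FPKM in WT, against 0 and 0.608 in the mutants. Its 95% interval, -2.72 to 0.12, included 0.

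Regulators of mitochondrial biogenesis gave 10 tested genes, 0 past the limma adjusted threshold, and a median log2 fold change of -0.19. This median was 0.045 without WT replicate 2, the only mouse whose removal turned its sign, and -0.30 without Ins2-AKITA replicate 1. The coactivator Ppargc1a was at 27.1, 28.7 and 22.9 FPKM in WT, against 47.3 and 36.1 in the mutants. Its log2 fold change of 0.64 (95% interval 0.12 to 1.16) was the highest of the list, with an adjusted p of 0.896 (limma). The related Ppargc1b was at 18.9, 18.6 and 12.1 FPKM in WT, against 11.7 and 7.02 in the mutants, the lowest of the list with -0.77. The values of Ppargc1a and Ppargc1b lay on opposite sides of the WT range, and the difference between them was not tested.

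Markers of mitochondrial mass gave 16 tested genes with a median log2 fold change of 0.24, of which 13 (81.2%, background 46.5%) were positive and 0 passed the limma adjusted threshold. This median was 0.055 without Ins2-AKITA replicate 2, 0.37 without Ins2-AKITA replicate 1 and 0.15 without WT replicate 1. They ranged from Tomm40, a pore of the outer membrane, with -0.47 to Tomm20, an import receptor, with 0.36. Tomm20 was at 30.4, 35.8 and 41.3 FPKM in WT, against 42.7 and 49.4 in the mutants, without overlap.

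Of 75 nuclear subunits of the oxidative phosphorylation complexes, 56 (74.7%) had a positive log2 fold change, with a median of 0.15, beside 80% and 0.18 for the tested mitochondrial genes and 46.5% and -0.03 for all tested genes. The median of the nuclear subunits was 0.024 without Ins2-AKITA replicate 2, 0.30 without Ins2-AKITA replicate 1 and 0.077 without WT replicate 2. Both Ins2-AKITA values were above all WT values in 14 of them (18.7%, background 9.24%) and below in 7 (9.33%, background 10.3%). None passed the limma adjusted threshold, while 2 were higher and 2 lower at an unadjusted p under 0.05, a share near the background of 4.46%. The highest, Ndufs1 of complex I, had a log2 fold change of 0.63 (95% interval -0.07 to 1.34). It was at 21.1, 19.9 and 28.8 FPKM in WT, against 28.0 and 46.4 in the mutants, with Ins2-AKITA replicate 1 inside the WT range. The lowest, Ndufb7 of the same complex, was at 42.9, 41.3 and 31.5 FPKM in WT, against 17.8 and 20 in the mutants, a log2 fold change of -0.98 (95% interval -1.51 to -0.45, limma adjusted p = 0.816). Mitochondrial and nuclear subunits were measured in the same mice, so their values are set side by side and not taken as separate evidence.

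The summed markers of 3 of 8 cell type lists did not overlap between the genotypes, and none of these sums was tested. Of single tested genes, 9.24% had the 2 mutants over the WT range and 10.3% had them under it. Such shares were not computed for sums of genes. The summed FPKM of 7 astrocyte markers was 2925, 3387 and 3770 in WT, against 4249 and 5084 in the mutants, above the WT range. That of 5 smooth muscle markers was 242, 285 and 258 in WT, against 205 and 154 in the mutants, below it. Likewise 5 erythroid markers summed to 60.1, 67.7 and 35.1 in WT, against 32.4 and 25.1 in the mutants, with Hbb-b2 at 0 in Ins2-AKITA replicate 2. The sums overlapped for 8 endothelial markers (442 to 776 in WT, 462 and 379 in Ins2-AKITA) and 7 pericyte markers (200.8 to 252 in WT, 227 and 177 in Ins2-AKITA). They also overlapped for 9 neuronal markers (805 to 891, then 819 and 988), 6 oligodendrocyte markers (1926 to 2613, then 2096 and 2302) and 7 microglial markers (118 to 162, then 133 and 122). The part of the cell mixture in the mitochondrial values was not tested.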

How the data were processed

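Total RNA from the brain microvessels of 5 mice (3 WT, 2 Ins2-AKITA) was depleted of rRNA and tRNA and made into stranded libraries. Per the study's methods and the submitters' processing notes, the authors mapped reads to NCBIM37 with TopHat2 2.0.4, removed duplicates with Picard 1.92 and used Cufflinks 2.2.1. The authors deposited FPKM per gene and mouse. The program behind these FPKM, its annotation release and its use of strand are not given in the sources used here. Duplicate removal and reads shared between gene copies can change the levels of abundant or copied genes.

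Groups came from the sample titles. Each library is a separate mouse. Of 37982 rows, 37197 were matched to the annotation of NCBIM37 for length and position. Rows sharing a symbol were summed (34615 symbols). log2(FPKM + 1) was computed from the deposited values and compared with limma 3.58.1 in R 4.3.3 (variance trend, two-sided) over 16286 genes with a mean FPKM of at least 1, with Benjamini-Hochberg adjustment over all of them. When tested on simulated data, the step left most of the changed genes uncalled at this group size. A fold change on this scale understates that of low genes. The study's own test needs alignments, which were not analysed here. Sums, ratios and shares carry no test.

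Fragments per library were estimated from the FPKM steps of low genes with the gene length reduced by 215 to 218 nt, where 95.2% to 96.5% of values were whole within 0.04, against 16.8% to 24.6% at full length. They cover assigned fragments and are estimates. Nuclear copies were found with blastn 2.17.0+ at 90% identity or more. Tables were handled with Python 3.11.15, numpy 2.4.6 and pandas 2.3.3, figures with matplotlib 3.10.9 and genome sequence with samtools 1.23.1.

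All protein and rRNA genes were named. From each nuclear list, the genes with the highest and lowest fold change were named, with Polrmt, Tfam, Lrpprc and Slirp in any case. Slirp was matched as 1810035L17Rik and is not counted in its list. The rule for naming tRNAs by level could not be applied because all were at 0. The members and gene lists were chosen with earlier results of these data known. Alternatives were another pseudocount, filters, scalings and prior variance, a replicate block, leaving out each mouse and, chosen after seeing the data, adding nuclear copies.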

Additional observations from a re-analysis of the deposited data

How the results depend on the processing

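The count of mitochondrial genes past the limma adjusted p was 0 under every alternative run, and of 195 fold changes under alternatives 177 kept their sign, with adjusted p from 0.268 to 1. The filters and the prior variance cannot change a fold change, and adding nuclear copies changes only mt-Nd4l and mt-Atp6. The replicate block repeats the values without WT replicate 3. The number with a kept sign therefore overstates how many separate checks were made. Rescaling every library to the same FPKM sum moved the median of all genes to 1.07. That sum ran from 1531570 to 13025900, of which a single gene of 109 nt held 3559780 in WT replicate 1. Under it the medians of the nuclear lists were 1.05 for RNA synthesis, 1.04 for biogenesis, 1.69 for mass markers and 1.70 for subunits, the tested members' median was 1.85, mt-Nd1 1.64, mt-Nd2 1.68, mt-Nd4 1.72, the protein class 1.85 and the rRNA class 2.02, and 2 members had an unadjusted p under 0.05. Scaling to nuclear protein-coding FPKM turned mt-Cytb to -0.010. With 1 mouse left out, log2 fold changes ran from -0.16 to 0.39 for mt-Rnr1, -0.23 to 0.045 for mt-Nd1, -0.13 to 0.027 for mt-Nd2, -0.12 to 0.096 for mt-Nd4, -0.029 to 0.12 for mt-Nd5, -0.039 to 0.095 for mt-Nd6 and -0.059 to 0.12 for mt-Cytb. Without Ins2-AKITA replicate 2, mt-Co3 was 0.14. The lone mutant mouse was then assumed to vary like the other group. The protein class ratio ran from 0.031 to 0.20, the lowest without Ins2-AKITA replicate 2, and the rRNA class ratio from 0.050 to 0.41, the lowest without WT replicate 3. The difference in the share of protein-coding FPKM ran from 0.17 to 0.47 percentage points. mt-Nd4l ran from 0.13 to 2.18 and was 2.29 with a pseudocount of 0.1. mt-Nd4l rests on a few fragments, while mt-Nd3 in the same libraries stood at 226 to 549 times the lowest value of genes of its length. The cause of the low mt-Nd4l level was not tested.

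Replicate numbers are shared between the groups, but nothing in the labels ties same-numbered mice. The correlation of their deviations across genes was 0.051 for number 1 and -0.034 for number 2. With 2 mutants, the deviations of 1 from the group mean mirror those of the other. These correlations are therefore not separate checks of a pairing and cannot decide it. With the replicate number as a block the count of calls stayed at 0, and log2 fold changes were -0.16 for mt-Rnr1, 0.019 for mt-Nd2, 0.033 for mt-Nd4 and -0.039 for mt-Nd6, which reversed their sign. WT replicate 3 has no partner, so these equal the values without it.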
